A study of Oryza sativa Indica Group with 9 samples.

Results

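miR396 is a conserved plant microRNA family, listed here as 10 distinct sequences of 483 in rice leaves, with 14 target loci of 478 in the degradome. The sequences were selected on their deposited name, miR396 with any species prefix, arm or end variant. The loci were all those that the authors' target table lists under the same family, and 9 of the 14 carry the annotation growth-regulating factor. The family itself was chosen by its read levels at 24 and 12 h against 0 h in these same libraries, so its levels and changes are a description. Calls of the fit for miR396 sequences are listed below, and again under alternative processing, and nothing is read from them.

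Mature miR396 is cut from a hairpin and loaded into an ARGONAUTE protein, which slices mRNAs that pair with it. Its best known targets in plants are the growth-regulating factor (GRF) genes, transcription factors that keep leaf cells dividing and raise organ size. In leaves, miR396 is known to limit GRF transcripts as cells leave division. The cut falls between the target bases opposite bases 10 and 11 of the microRNA. It leaves a 3′ fragment whose new 5′ end lies opposite base 10, and a degradome library counts such 5′ ends in polyadenylated RNA.

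The plants were seedlings of the Indica breeding line HT54, described by the submitters as heat tolerant, at the three-leaf stage. All were raised alike at 25 °C and leaves were taken after 0, 12 or 24 h at 45 °C. Each time point has 2 small RNA libraries, numbered 1 and 3, and 1 degradome library. A further small RNA library of each time point was judged unsuitable by the submitters and is not analysed here. Unheated leaves harvested at 12 or 24 h were not used here, so heat cannot be told apart from elapsed time. Paired values are given below for replicate 1 and then replicate 3.

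The listed miRNA reads numbered 33623 and 102513 without heat, 147038 and 10314 in the libraries of 12 h, and 119293 and 227965 in those of 24 h, so 12 h replicate 3 carried the least precision. The degradome libraries held 12554074, 11033581 and 12960708 raw reads at 0, 12 and 24 h. The leaf label has no mRNA marker in these tables to be checked against. Of the panicle triggers miR2118 and miR2275, microRNAs known from reproductive tissue, 3 sequences of miR2118 and 0 of miR2275 were listed. The most abundant, osa-MIR2118e-p5_2ss12TA18CT, had a mean of 2276 ± 1965 CPM (scaled reads, defined below) at 0 h. It had 816 ± 604 CPM at 12 h and 3671 ± 2605 CPM at 24 h (SD, n = 2 each), so miR2118 was not absent from these libraries. In whole leaves, fewer cells holding an RNA and less of it per cell cannot be told apart.

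The 7 sequences not named as 3′ strands are taken as the 5′ arm, the guide strand in this family. They are shown first because a few bases separate 2 kinds of miR396. The seed, bases 2 to 8, is in capitals, and T stands for U as in the deposited tables.
osa-miR396e-5p: tCCACAGGctttcttgaactg
osa-miR396d: tCCACAGGctttcttgaacgg
osa-miR396c-5p: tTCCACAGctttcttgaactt
osa-miR396a-5p: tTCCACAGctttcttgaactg
bdi-miR396e-5p_R+1: tTCCACAGctttcttgaactta
ath-miR396a-5p_1ss21GA: tTCCACAGctttcttgaacta
osa-miR396d_L+2_1ss22GT: cGTCCACAggctttcttgaactg

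By seed these fall into 3 groups. osa-miR396e-5p and osa-miR396d share CCACAGG and together held 89.6% of the family's reads over the 6 libraries. The 4 sequences with the seed TCCACAG held 9.56%. The L+2 variant, which is osa-miR396e-5p with CG added at its 5′ end, was alone with GTCCACA and held 0.0619%. osa-miR396e-5p is osa-miR396a-5p without its first base and with a G inserted at position 7 or 8, which cannot be told apart. Within the groups the differences lie at the 3′ end. Counted from the 5′ end, osa-miR396d differs from osa-miR396e-5p by T20G, osa-miR396a-5p from osa-miR396c-5p by T21G, and the ath-named sequence from osa-miR396c-5p by T21A.

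The 3 sequences of the 3′ arm are the strands that are usually lost when the duplex is loaded. They are shown because they tell apart hairpins that share a guide.
osa-MIR396f-p3: tGTTGATAgttcaagaaagtc
osa-MIR396e-p3: tGTTGATGgttcaagaaagcc
osa-miR396c-3p_L-1R+1: gTCAAGAAagctgtgggaaga
The first and the second differ by A8G and T20C (osa-MIR396f-p3 base first), so each has a seed of its own.

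osa-miR396e-5p was listed in 2 hairpins, and its reads cannot be assigned to one of them. No source used here gives the genome build of the listed positions. In the next lines the capitals mark the 5′ and 3′ strands as deposited.
osa-MIR396f, chr2:35636546-35636721, minus strand: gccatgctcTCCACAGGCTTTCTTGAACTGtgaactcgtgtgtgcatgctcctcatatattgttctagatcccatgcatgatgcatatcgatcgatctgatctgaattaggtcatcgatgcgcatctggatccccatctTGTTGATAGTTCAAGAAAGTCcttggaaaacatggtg
osa-MIR396e, chr4:34436820-34437003, plus strand: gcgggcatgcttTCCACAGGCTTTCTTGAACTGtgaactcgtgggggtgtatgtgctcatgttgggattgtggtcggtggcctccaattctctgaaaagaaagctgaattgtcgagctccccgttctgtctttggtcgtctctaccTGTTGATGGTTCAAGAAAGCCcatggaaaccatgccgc
In the deposited folds, 19 of the 21 bases of the guide were paired in osa-MIR396f and 17 of 21 in osa-MIR396e. osa-miR396c-5p came from osa-MIR396c on chromosome 2 (34287873 to 34288013, minus strand, 20 of 21 bases paired). osa-miR396a-5p was listed in osa-MIR396a on chromosome 2 (34280384 to 34280537, plus strand) and osa-MIR396b on chromosome 6 (3669649 to 3669764, plus strand), with 20 of 21 bases paired in each.

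osa-miR396d was listed in hairpins that pair less well. They are shown beside the first pair because this sequence is the one that matches most GRF sites without a mismatch.
osa-MIR396d, chr2:28865708-28865819, plus strand: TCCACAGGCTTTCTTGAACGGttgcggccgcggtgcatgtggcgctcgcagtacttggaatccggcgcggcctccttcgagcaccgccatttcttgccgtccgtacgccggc
osa-MIR396d, chr6:895244-895314, plus strand: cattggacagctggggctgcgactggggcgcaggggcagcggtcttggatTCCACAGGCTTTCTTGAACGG
Of the 21 bases, 8 were paired in the hairpin on chromosome 2 and 12 in that on chromosome 6, where the deposited arm is 3′. A further hairpin of that name, on chromosome 4 (30320096 to 30320216, plus strand), was listed for the L+2 variant, with the deposited arm 3′. It differs from the variant by T2G and G22T (hairpin base first, counted from the variant's 5′ end). It shares an unbroken run of 31 bases with the hairpin on chromosome 2. A read that pairs fully with a GRF site also has the sequence of that site's opposite strand, and the tables do not separate these sources. Whether the listed positions lie in GRF loci was not tested. The bdi- and ath-named sequences also differ from their listed hairpins at the last base, by C22A and G21A (hairpin base first).

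The summed family made up 6.11 and 7.06% of the listed reads at 0 h (replicates 1 and 3), 25.8 and 11.7% at 12 h, and 48.3 and 39.7% at 24 h. No library of one time point overlapped with another time point in this share. Its log2 change was 3.23 ± 0.34 at 24 h against 0 h and 1.30 ± 0.32 at 12 h against 0 h (SE, n = 2 libraries per time point, edgeR). At 24 h against 12 h it was 1.93 ± 0.32. The values at 12 h turn on 1 library: without 12 h replicate 1 the change at 12 h was 0.62, and without 12 h replicate 3 it was 1.87. These same omissions gave 2.72 and 1.23 at 24 h against 12 h.

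osa-miR396e-5p carried most of this. Levels are in reads per 1000000 of the library total after that total is multiplied by a TMM factor (CPM). The factor differs between libraries, so CPM is not a share of reads: osa-miR396e-5p held 46.5% of listed reads in 24 h replicate 1. Its level was 38285 and 58177 CPM without heat and 221659 and 66144 CPM in the libraries of 12 h. In those of 24 h it was 668029 and 423875 CPM. The time points did not overlap, although 12 h replicate 3 lay close to the 0 h libraries. In both 0 h libraries it was the second most abundant listed sequence, and in all 4 heated libraries the most abundant. Its log2 change was 3.50 ± 0.91 at 24 h and 1.58 ± 0.85 at 12 h, each against 0 h (SE, n = 2 per time point).

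osa-miR396c-5p, the leading sequence of the other seed, had 12075 and 8363 CPM without heat, 29371 and 8625 CPM in the libraries of 12 h, and 17704 and 54635 CPM in those of 24 h. Both 24 h libraries lay above both 0 h libraries, but the 12 h libraries overlapped with each. Its log2 change at 24 h against 0 h was 1.82 ± 0.76. The number of osa-miR396e-5p reads for each osa-miR396c-5p read was 3.17 and 6.96 without heat, 7.55 and 7.68 in the libraries of 12 h, and 37.7 and 7.76 in those of 24 h. The high ratio came from 24 h replicate 1 alone, so the balance of the 2 seeds differed between the 24 h libraries by more than between time points.

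osa-miR396a-5p had 417 and 611 CPM without heat, 1541 and 713 CPM in the libraries of 12 h, and 3394 and 2068 CPM in those of 24 h. The time points did not overlap, although 12 h replicate 3 rests on 11.2 reads. Its log2 change at 24 h against 0 h was 2.39 ± 0.76. It shares its seed and its first 20 bases with osa-miR396c-5p, and was less abundant in every library. The bdi-named form of osa-miR396c-5p with an A added had 339 and 305 CPM without heat, 514 and 519 CPM in the libraries of 12 h, and 385 and 632 CPM in those of 24 h. Its heated libraries all lay above the 0 h libraries, and its log2 change at 24 h against 0 h was 0.67 ± 0.75. It was counted at 13 reads in 0 h replicate 1, 7.5 in 12 h replicate 3 and 31.5 in 24 h replicate 1, so counting error could cover these gaps. The ath-named form had between 19.1 and 129 CPM in the 6 libraries, where 3 reads amount to 78.2 CPM in 0 h replicate 1 and 195 CPM in 12 h replicate 3.

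osa-miR396d was counted at 0.5 and 1 reads without heat, 52 and 0.5 reads in the libraries of 12 h, and 75.5 and 66.5 reads in those of 24 h. It therefore passed the filter on low values through heated libraries only, and its fitted change of 6.28 ± 1.18 at 24 h against 0 h depends on the prior count of the fit. Among the reads of osa-miR396d and osa-miR396e-5p together, it held 0.0341 and 0.0164% without heat, 0.158 and 0.0490% in the libraries of 12 h, and 0.136 and 0.0840% in those of 24 h. The part of misread osa-miR396e-5p copies in this was not tested. The L+2 variant had 130 and 76.4 CPM without heat, 345 and 130 CPM in the libraries of 12 h, and 385 and 129 CPM in those of 24 h, and its groups overlapped.

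**Figure D1:**
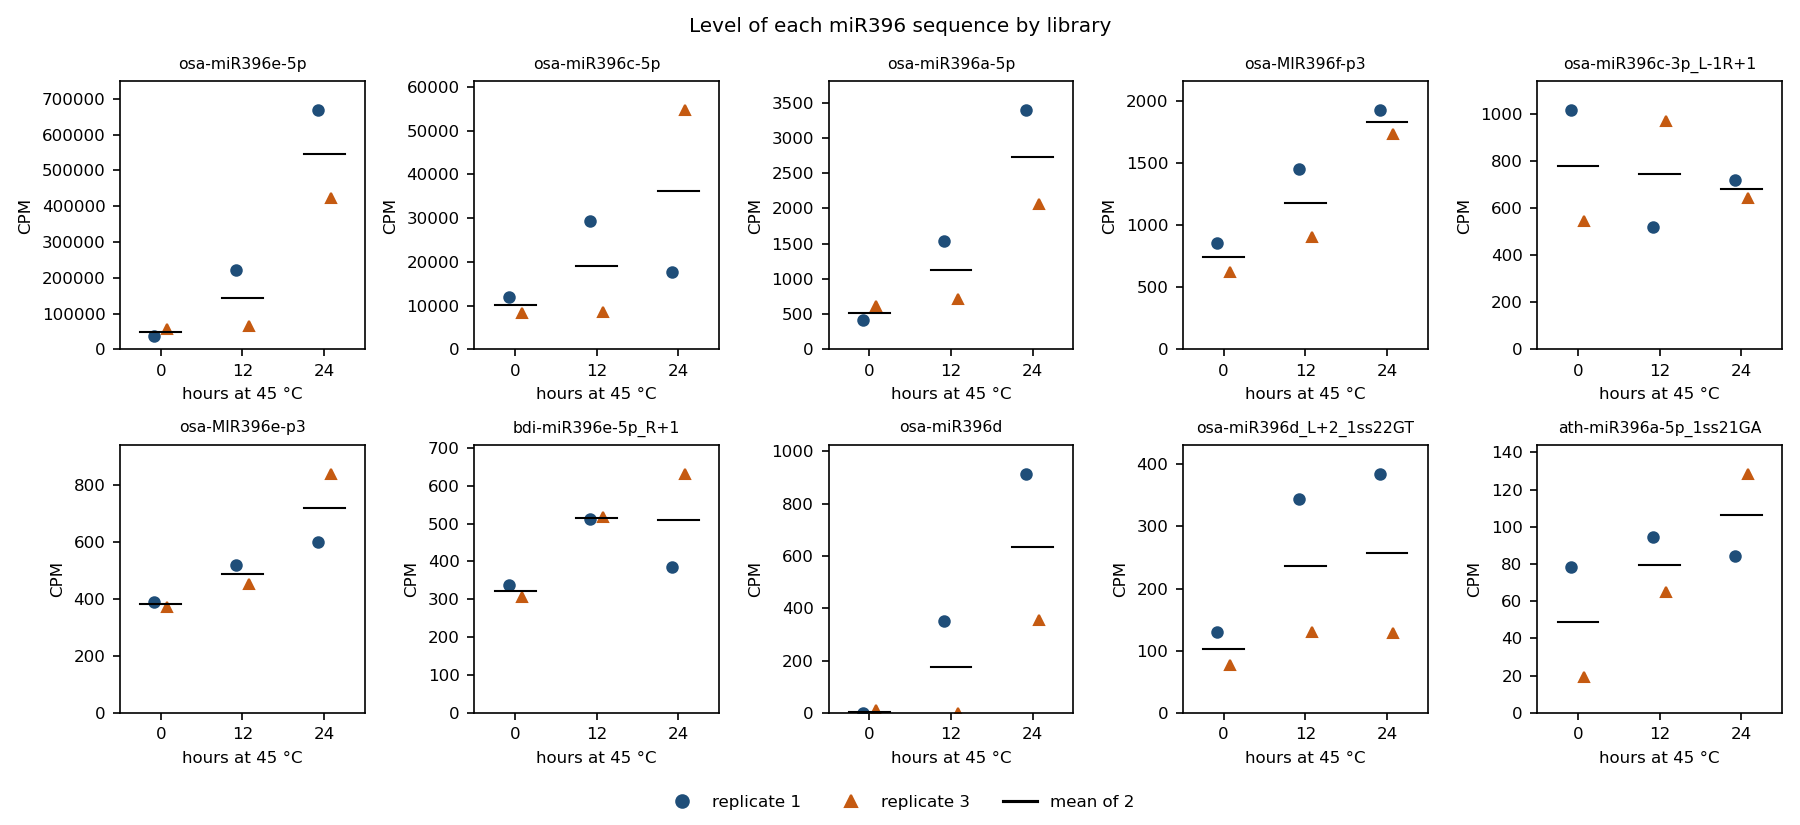
Level of each of the 10 miR396 sequences in CPM (y axes, each from 0) against hours at 45 °C, with 1 point per library and a line at the mean of 2. osa-miR396e-5p reached 668029 and 423875 CPM at 24 h, while osa-miR396c-3p_L-1R+1 stayed in 1 range at all time points.

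All 10 sequences reached 10 reads in at least 2 libraries, the filter of the fit, but osa-miR396d, the L+2 variant and the ath-named form did so in heated libraries only. At 24 h against 0 h, 3 of the 10 were past the adjusted threshold of 0.05 of edgeR's quasi-likelihood test on the higher side (osa-miR396e-5p, osa-miR396a-5p and osa-miR396d), where 2.61% of all 459 sequences tested were. At 12 h against 0 h it was 1 of 10 (osa-miR396d), where 0.436% of all sequences were, and at 24 h against 12 h 0 of 10, where 0.218% were. None was past it on the lower side in the 3 comparisons, where 6.97%, 2.83% and 0% of all sequences were. These calls follow in part from how the family and the low sequences entered, and the count at 24 h against 0 h was 1 without either 0 h replicate 1 or 0 h replicate 3.

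**Figure D2:**
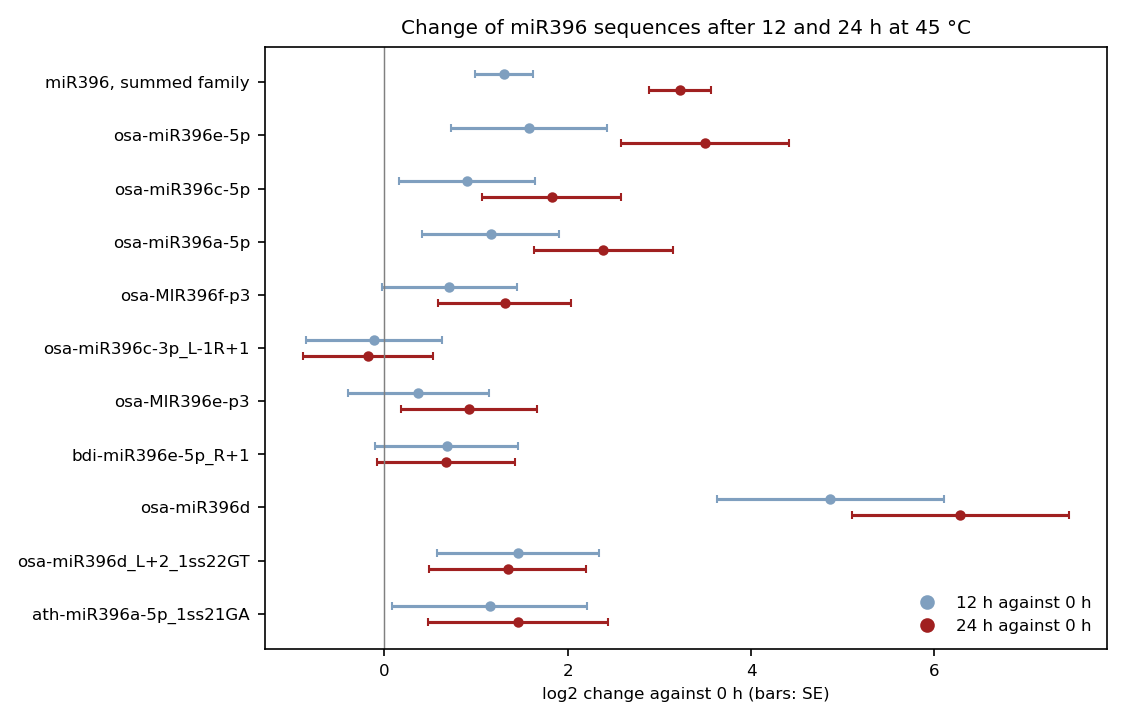
Log2 change against 0 h (x axis, bars are SE, n = 2 libraries per time point) of the summed miR396 family and its 10 sequences at 12 h (blue) and 24 h (red). The 5′ strands osa-miR396e-5p (3.50 at 24 h) and osa-miR396a-5p (2.39) lie to the right of all 3 of the 3′ strands (1.31, 0.92 and −0.18). However, bdi-miR396e-5p_R+1 (0.67) and the L+2 variant (1.34), also taken as 5′ strands, lie among or beside the 3′ strands.

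The 3′ strands had smaller log2 changes at 24 h against 0 h than the guides of their hairpins. osa-MIR396f-p3 had 861 and 621 CPM without heat, 1453 and 908 CPM in the libraries of 12 h, and 1926 and 1731 CPM in those of 24 h, a log2 change at 24 h against 0 h of 1.31 ± 0.73. osa-MIR396e-p3 had 391 and 372 CPM without heat, 520.3 and 454 CPM in the libraries of 12 h, and 602 and 841 CPM in those of 24 h, a log2 change of 0.92 ± 0.74. Both hairpins of osa-miR396e-5p thus had 3′ strands whose time points did not overlap. In 12 h replicate 3 this rests on 14 reads of osa-MIR396f-p3 and 7 of osa-MIR396e-p3. There 3 reads amount to 195 CPM, more than the gaps to 0 h replicate 1, so the step from 0 to 12 h was not resolved. The strand of osa-MIR396c, osa-miR396c-3p_L-1R+1, had 1017 and 544 CPM without heat, 520.3 and 973 CPM in the libraries of 12 h, and 722 and 643 CPM in those of 24 h. Its groups overlapped, with a log2 change of −0.18 ± 0.71 at 24 h against 0 h.

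The share of 3′ arm sequences in all miR396 reads was 4.23 and 2.22% without heat, 0.973 and 2.97% in the libraries of 12 h, and 0.468 and 0.663% in those of 24 h. The exact 95% intervals, which cover counting error only, ran from 0.414 to 0.718% over the 24 h libraries and from 1.90 to 5.20% over the 0 h libraries. Both 24 h libraries thus lay below both 0 h libraries, while the 12 h libraries spanned the gap. The means were 0.565 ± 0.138% at 24 h and 3.23 ± 1.42% at 0 h (SD, n = 2 each). With 2 libraries against 2, an exact two-sided permutation p cannot go below 0.333, so this and the following differences in shares and ratios are given as values.

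For each read of osa-MIR396e-p3 and osa-MIR396f-p3 together there were 30.6 and 58.6 reads of their guide osa-miR396e-5p without heat, 112 and 48.5 in the libraries of 12 h, and 264 and 165 in those of 24 h. For osa-MIR396c there were 11.9 and 15.4 guide reads per 3′ read without heat, 56.5 and 8.84 in the libraries of 12 h, and 24.5 and 85.0 in those of 24 h. In both cases the 24 h libraries lay above the 0 h libraries. The first ratio may miss 3′ reads of other lengths: in the deposited folds the listed 3′ strands of osa-MIR396e and osa-MIR396f end 6 bases short of the partner of the guide's first base. osa-MIR396f-p3 outnumbered osa-MIR396e-p3 in every library, by a ratio of 2.20 and 1.67 without heat, 2.79 and 2.00 in the libraries of 12 h, and 3.20 and 2.06 in those of 24 h. The time points overlapped in this ratio of the 2 hairpins.

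**Figure D3:**
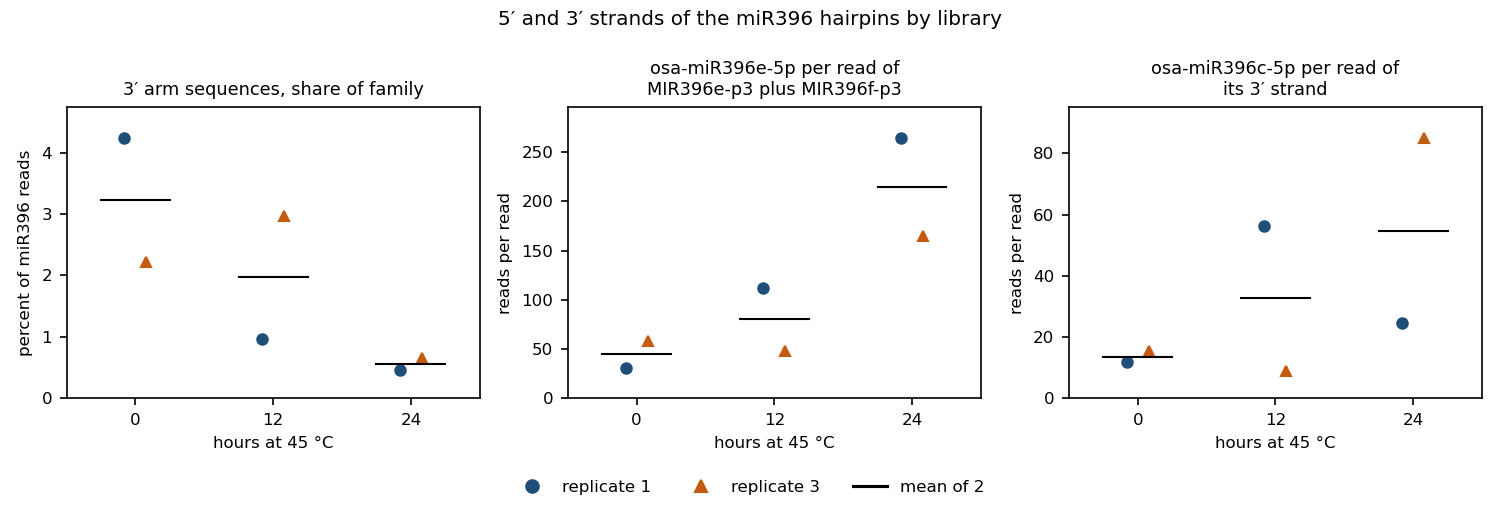
Share of 3′ arm sequences in miR396 reads (left, percent), and guide reads per 3′ strand read for osa-miR396e-5p (middle) and osa-miR396c-5p (right), against hours at 45 °C, with 1 point per library and a line at the mean of 2. The 24 h libraries sit at 0.468 and 0.663% in the left panel, below the 0 h libraries at 4.23 and 2.22%.

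The share of the most abundant sequence in the family was 71.4 and 84.2% without heat, 86.5 and 84.2% in the libraries of 12 h, and 96.2 and 87.4% in those of 24 h. The means were 91.8 ± 6.26% at 24 h and 77.8 ± 9.05% at 0 h (SD, n = 2 each). The 24 h libraries lay above the 0 h libraries, and the difference between the means was 14.0 percentage points.

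Among 100 other families with at least 100 reads, the 5 whose log2 CPM followed that of miR396 most closely over the 6 libraries were miR3982 (Pearson r = 0.978), miR156 (0.957), miR393 (0.944), miR2055 (0.919) and miR172 (0.911). These values describe 6 points that share time points and scaling, and the median over the 100 families was −0.06. miR393, which targets auxin receptor genes, had 949 and 1930 CPM without heat, 7941 and 3087 CPM in the libraries of 12 h, and 14482 and 8405 CPM in those of 24 h, so its 12 h libraries were unlike in the same sense as those of miR396. miR172, which targets AP2-type factors, had 1005 and 740 CPM without heat, 4369 and 1869 CPM in the libraries of 12 h, and 4313 and 5799 CPM in those of 24 h. miR156, which targets SPL factors, followed miR396 with a small log2 change, 0.43 ± 0.38 at 24 h against 0 h. In the same comparison miR3982 had a log2 change of 2.22 ± 0.73, from 149 reads in all, and miR2055 one of 1.82.

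Other microRNAs known from leaf growth and auxin response (miR159, miR160, miR164, miR166, miR167, miR171, miR319, miR390 and miR393) had 69 sequences, of which 68 were tested. At 24 h against 0 h, 3 rose and 5 fell, or 4.41 and 7.35% beside 2.61 and 6.97% of all sequences tested, with a median log2 change of 0.50 beside 0.00 over all sequences. Named after their values were seen, the rises were osa-miR393a (log2 change 2.99 ± 0.76, edgeR adjusted p = 0.00356), osa-miR160a-5p, a regulator of auxin response factors (2.92 ± 0.76), and the rare ghr-miR393_L+3R-1. The falls were osa-MIR167b-p3, osa-miR166a-5p, osa-miR171h_L-1R+1, osa-miR164e and osa-miR166d-5p, between −4.87 and −2.60. By name, osa-MIR167b-p3, osa-miR166a-5p and osa-miR166d-5p are of the arm opposite to that of their family's most abundant sequence. The most abundant sequence of each family had smaller changes for 8 of the 9: 1.51 ± 0.73 for osa-miR160f-5p, 1.30 ± 0.72 for osa-miR390-5p, 1.13 ± 0.71 for osa-miR164a and 0.89 ± 0.74 for osa-miR166a-3p. It was 0.61 ± 0.72 for osa-miR171b, −0.17 ± 0.71 for osa-miR167d-5p_R+1, −1.07 ± 0.73 for osa-miR319a-3p.2-3p_R+1 and −1.14 ± 0.73 for osa-miR159a.1, and none of these 8 passed. miR319 targets TCP factors and miR159 targets GAMYB-type factors.
At 12 h against 0 h, 1 of the 68 rose (ghr-miR393_L+3R-1) and 1 fell (osa-miR166d-5p), where 0.436 and 2.83% of all sequences did, with a median of −0.22 beside −0.03. At 24 h against 12 h, 1 rose (osa-miR160a-5p) and 0 fell, where 0.218 and 0% of all sequences did, with a median of 0.64 beside 0.01. None of the 3 miR2118 sequences passed in any of the 3 comparisons by edgeR.

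At the target side, 7 of the 10 sequences had a row in the degradome table, and 6 of them were aligned to GRF loci. osa-miR396d reached an alignment score of 0, which marks pairing with no penalty, at 6 of the 9 GRF loci. osa-miR396e-5p, which differs from it by T20G, scored 1 at those 6. osa-miR396a-5p scored 3 at 7 GRF loci and osa-miR396c-5p 4 at 8, so the second seed paired less closely at every one of those 6 sites. At LOC_Os03g51970, LOC_Os04g48510 and LOC_Os11g35030 osa-miR396d scored 2, 2 and 2.5 and osa-miR396e-5p 3, 3 and 3.5. There the second seed was not behind osa-miR396e-5p throughout: osa-miR396a-5p scored 3 at LOC_Os03g51970 and 3.5 at LOC_Os11g35030, and the ath-named form 3 at LOC_Os11g35030.

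Apart from the L+2 variant, these sequences were assigned the same cut in each GRF transcript. It lay opposite base 10 of osa-miR396d and osa-miR396e-5p. For the sequences with the second seed it was base 11 of the listed target range, counted from the end that pairs with the microRNA's 5′ end. That range is 1 base longer than these sequences, so 11 counts target bases and is not a position in the microRNA. A read at a GRF site therefore cannot be given to one member of the family. The L+2 variant was placed 2 bases downstream at 2 loci, where 1 read stood at position 960 of LOC_Os03g47140.1 at 0 h, beside 8 reads at 958. At LOC_Os02g45570.1 it was 1 read at position 642, beside 6 reads at 640. The heated libraries had 0 reads at those downstream positions.

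Before heat, 7 of the 9 GRF sites held reads, 6 of them as category 0, the class for the highest peak of a transcript. LOC_Os02g53690, annotated as growth-regulating factor 5 by its Arabidopsis match, had 18 reads without heat, 0 at 12 h and 1 at 24 h (position 581 of its first transcript). The ratio at 24 h over 0 h, per raw read, was 0.0538 (95% counting interval 0.00129 to 0.341), and the upper limit of the interval at 12 h over 0 h was 0.259. LOC_Os06g02560, also annotated as growth-regulating factor 5, had 11 reads without heat, 0 at 12 h and 1 at 24 h (position 616). Its ratio at 24 h was 0.0881 (0.00205 to 0.606) and the upper limit at 12 h was 0.453. At both loci the site had category 0 at 0 h and category 4, a single read, at 24 h.

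LOC_Os03g47140, annotated as growth-regulating factor 2, had 8 reads without heat, 3 at 12 h and 4 at 24 h (position 958). It was of category 0 in all 3 libraries, and its ratio at 24 h over 0 h was 0.484 (0.107 to 1.81). LOC_Os04g51190 (growth-regulating factor 5) had 5, 4 and 2 reads at 0, 12 and 24 h, a ratio at 24 h of 0.387 (0.0369 to 2.37). Neither interval leaves out an equal signal. LOC_Os02g45570 (growth-regulating factor 3) had 6, 1 and 0 reads, and the upper limit of its ratio at 24 h was 0.823.

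The remaining 4 GRF loci had few reads. LOC_Os03g51970 (growth-regulating factor 1) had 2, 1 and 3 reads at 0, 12 and 24 h, and was the only one of the 7 sites with reads at 0 h that had more reads at 24 h. LOC_Os02g47280 (growth-regulating factor 5) had 2, 0 and 0 reads. LOC_Os04g48510 (growth-regulating factor 2) had 1 read, at 12 h, and LOC_Os11g35030 (growth-regulating factor 2) had 1, at 24 h. At these depths no difference between time points was detectable for the 4.

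**Figure D4:**
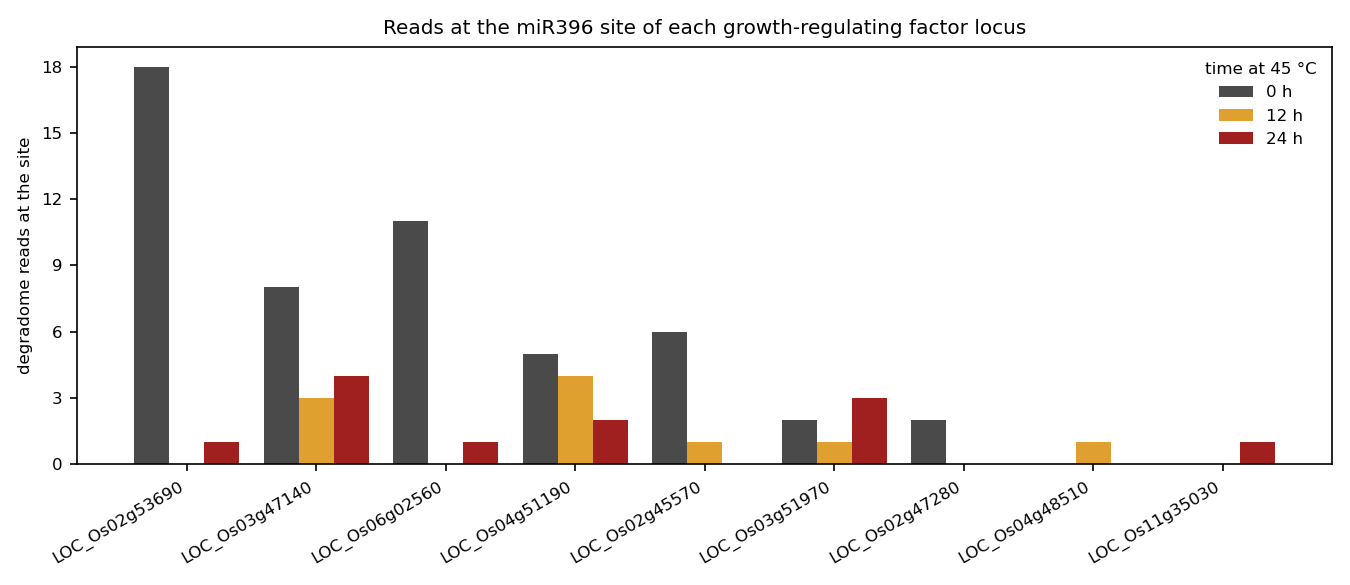
Degradome reads (y axis, from 0) at the miR396 site of each of the 9 GRF loci, with 1 bar per library at 0, 12 and 24 h. LOC_Os02g53690 and LOC_Os06g02560 have 18 and 11 reads at 0 h and 0 or 1 in the heated libraries, while LOC_Os03g47140 has 8, 3 and 4.

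Summed over the 9 GRF loci there were 52 reads without heat, 10 at 12 h and 12 at 24 h, or 4.14, 0.906 and 0.926 per 1000000 raw reads. The ratio to 0 h was 0.224 at 24 h (95% counting interval 0.109 to 0.424) and 0.219 at 12 h (0.0991 to 0.435). With 1 library per time point this compares libraries and has no replicate check. LOC_Os02g53690 carries much of the sum: without it the ratios were 0.313 (0.143 to 0.633) at 24 h and 0.335 (0.147 to 0.693) at 12 h. Summed signal at listed sites was lower in the heated libraries for other families too. Over 464 loci of all other families, the ratio to 0 h was 0.677 (0.648 to 0.707) at 24 h and 0.548 (0.522 to 0.576) at 12 h. The interval of the 8 GRF loci holds the 12 h value but not the 24 h value. Of the 4942 reads of the 464 loci at 0 h, 4476 lay at the 46 loci with at least 10 reads in 1 library. These 46 loci had ratios of 0.667 at 24 h and 0.503 at 12 h, so they set most of the sum. The loci with fewer reads were not summed apart, and the intervals do not cover the spread between loci. In the deposited scaled signal the 464 loci had ratios of 0.493 at 24 h and 0.508 at 12 h. The 8 GRF loci had 0.426 and 0.402, and all 9 had 0.246 and 0.208. The level of the uncut GRF transcripts was not measured, so its part in these ratios was not tested.

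**Figure D5:**
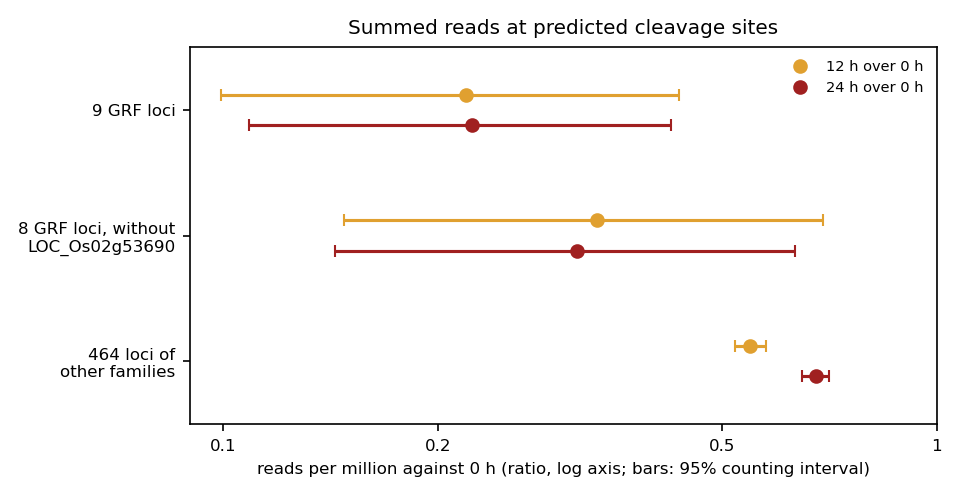
Ratio of summed reads per raw read to 0 h (x axis, log scale, bars are 95% counting intervals) at 12 h (yellow) and 24 h (red). The 9 GRF loci are at 0.219 and 0.224, the 8 without LOC_Os02g53690 at 0.335 and 0.313, and the 464 loci of other families at 0.548 and 0.677.

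By the deposited scaled signal, 6 of the 9 GRF loci were at least 2-fold lower at 24 h than at 0 h and 1 was higher. Over all 507 pairs of family and locus, 38.3% were at least 2-fold lower and 30.2% at least 2-fold higher, since most sites hold a few reads. At 12 h against 0 h, 5 of the 9 were lower and 1 higher, where 36.1% and 31.6% of all pairs were.

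The 5 other loci had 7 reads without heat, 5 at 12 h and 0 at 24 h in all, and none was of category 0. LOC_Os11g19810 (Tudor/PWWP/MBT superfamily protein) had 4, 0 and 0 reads at 0, 12 and 24 h, and LOC_Os08g40230 (mitochondrial ribosomal protein S24/S35) had 1, 3 and 0. LOC_Os02g48080 (S-locus lectin protein kinase) had 1, 0 and 0 reads, and LOC_Os07g43720 (a protein with the domain of unknown function DUF298) had 0, 1 and 0. LOC_Os01g70470, with no annotation in the table, was the only locus of a 3′ strand, osa-MIR396e-p3, with 1, 1 and 0 reads. All 5 had alignment scores of 4, the highest listed for the family. At 24 h against 0 h, 4 of the 5 were at least 2-fold lower and 0 higher, where 38.3% and 30.2% of all 507 pairs were. Of the 4, LOC_Os08g40230, LOC_Os02g48080 and LOC_Os01g70470 had 1 read at 0 h, so the loss of 1 read was enough.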

How the data were processed

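Small RNA of rice leaves was sequenced in 6 libraries and the degradome in 3. The authors deposited estimated counts per mature sequence (reads shared between positions are divided), read counts per predicted cleavage site, a scaled signal (divided reads times 1e+09 over raw reads) and, per the file headers, a category score and an alignment score. No source used here gives the mapper, target finder or genome build. Deposited p-values of sites were not used, since they compare single libraries.

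Estimated counts were rounded and fitted in edgeR 4.0.16 (R 4.3.3; TMM scaling, quasi-likelihood test, all 6 libraries in 1 fit, time as the only factor, Benjamini-Hochberg threshold 0.05). Tests covered the 459 sequences and 124 families that reached 10 reads in 2 or more libraries. The test was planned for whole counts. Prior degrees of freedom were infinite for sequences, so each SE rests on a shared spread. The fit was tested on simulated data. Shares are given per library, since 2 against 2 cannot pass an exact permutation test, and degradome reads with exact 95% intervals for counting error (scipy 1.17.1). Each locus is counted once, by its row with most reads; divided reads times the locus's transcripts matched its reads. Named were every sequence passing the filter, every degradome locus, the 5 families most like miR396, and the most abundant sequence of each leaf growth family. Members and lists were chosen with earlier results of these data known. Libraries of a time point are called independent in the labels. The p-values of sequences rest on the shared spread, not on that between the 2 libraries of each sequence alone. Alternatives were other scalings and filters, DESeq2 1.42.0, a replicate block and each library left out. Replicate numbers did not pair the libraries (correlations of deviations −0.12, 0.15 and −0.22).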

Additional observations from a re-analysis of the deposited data

How the results depend on the processing

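Of 120 values recomputed under alternatives, 102 stayed close to the main value. Close meant within the spread for log2 changes and shares, the counting interval for summed GRF ratios, or 1.5 times the count. No log2 change or share difference changed sign, and the summed GRF ratios all stayed below 1. Counts of sequences and loci are never negative, so a change of sign was not possible for them. The family's log2 change ranged with 1 library left out from 3.08 to 3.46 at 24 h against 0 h, from 0.62 to 1.87 at 12 h against 0 h and from 1.23 to 2.72 at 24 h against 12 h. Members past the threshold then numbered 1 to 4, 0 to 1 and 0 to 1. The call at 12 h, osa-miR396d, was absent (0 members) with totals of sequences that are not miR396, with at least 50 reads in 2 libraries, with only the 4 libraries compared, with DESeq2 and with the replicate block. The cause was not tested. With the replicate block, which no check of the numbers bears out, the family changes were 3.19, 1.21 and 1.98 in the same order, and 2, 0 and 0 members passed. Totals of sequences that are not miR396 put the median of all families at 0.30 at 24 h and 0.43 at 12 h, where it otherwise stood at 0.05 and 0.02, and the family changes were then 3.50 and 1.77. The difference in the 3′ arm share, 24 h minus 0 h, ranged from −3.67 to −1.66 percentage points with 1 library left out, and that of the most abundant sequence from 7.61 to 20.4. The summed GRF signal at 24 h over 0 h was 0.426 without LOC_Os02g53690, a setting added once the data had been seen. Of all 14 loci, 10 were at least 2-fold lower and 1 higher at 24 h, where 38.3% and 30.2% of all 507 pairs of family and locus were. Some of the 10 had only 1 or 2 reads at 0 h, so the loss of these counted as lower. Of loci with at least 10 reads in 1 library, 2 were lower and 0 higher. Both reached 10 reads at 0 h only, so the filter set their direction. Read depth limits every degradome locus, and 12 h replicate 3 limits the 12 h values.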
